A study of Mus musculus with 12 samples.

Results

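The genes described here are 36 genes of cholesterol and myelin lipid synthesis, looked up in a table of 47069 genes. They were chosen by name from knowledge of the pathways, with earlier results of these data known. The 36 comprise 18 enzymes of the sterol pathway, 5 sterol regulators or transfer proteins, 3 galactolipid enzymes, 2 sphingolipid backbone enzymes and 8 enzymes that make, desaturate or elongate fatty acids. Each of the 36 passed the filter on low values and was tested. Pdgfra/GFP+ cells, the source of the stranded total RNA libraries, were sorted from heterozygous Pdgfra-H2BGFP knock-in mice on a C57BL/6NJ background. In this line a nuclear green fluorescent protein is made from the locus of Pdgfra, the receptor gene that marks oligodendrocyte precursor cells (OPCs), and all 12 libraries carry the same allele. Libraries came in 4 groups of 3, from the brain (forebrain, per the methods) or the spinal cord of mid-gestation embryos (E13.5) or pups in the first postnatal week (P7). Each library pooled the cells of several animals, and the GFP outlasts Pdgfra itself, so the gate can also take in early stages of oligodendrocyte differentiation. Embryos were dissociated by pipette and pups with papain, so age and dissociation cannot be told apart.

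Cholesterol is built from acetyl-CoA by way of mevalonate, farnesyl diphosphate, squalene and lanosterol, and the later enzymes trim and reduce lanosterol to cholesterol. The sterol response is governed by the transcription factors encoded by Srebf1 and Srebf2, which Scap escorts to activation and Insig1 holds back when sterols are plentiful. Myelin, the wrapped membrane that oligodendrocytes make, is rich in cholesterol, in the galactolipids galactosylceramide and sulfatide, and in very long chain fatty acids. Cholesterol does not cross the blood-brain barrier in quantity, and cells in the central nervous system therefore make their own.

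Values are CPM, read counts scaled by library size, and behind them lay 12566345 to 38790312 reads per library, with every P7 library deeper than every E13.5 library. A gene was called when its adjusted p in limma, over all 18319 genes tested, was under 0.05 and its difference was over 2-fold. Differences are given on the log2(CPM + 0.5) scale, as estimate ± standard error (SE) from the model with n = 3 libraries per group, and "rose" and "fell" are used only of called genes. With the deposited scaling, the median difference over all genes was -0.19 for P7 minus E13.5 in brain, 0.12 for the same in spinal cord, 0.05 for brain minus spinal cord at E13.5, -0.19 for the same at P7 and -0.24 for the second region difference minus the first. With TMM scaling recomputed from the reads these medians were -0.02, 0.12, 0.05, -0.02 and -0.07, since the deposited library sizes of the 3 P7 brain libraries lay 16.3%, 13.1% and 13.1% above TMM. E13.5 spinal cord replicate 3 had the fewest reads and a scaling factor of 0.472, against 0.955 to 1.20 in the other libraries. OPC markers were present in every library. The 6 summed in brain to 766 to 1277 CPM at E13.5 and 5837 to 6992 at P7, and in spinal cord to 500.4 to 741 and 5613 to 5702.

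The promoters are shown first, because most of the sterol genes held the same letter patterns there. RefSeq promoter windows on GRCm38.p6, from 250 bases before to 50 after the start of the RNA, were found for 29 of the 36 genes. The CCAAT box (CCAAT, either strand), which NF-Y binds and which often lies near sterol-responsive sites, was found in 14 of 15 sterol pathway genes with a window and in 6 of 10 of the fatty acid, sphingolipid and galactolipid genes. Of the 2 galactolipid genes with a window, Gal3st1 held it and Ugt8a did not. Over all 36 members the count was 23 of the 29 with a window (79.3%), against 42.3% of 17491 protein-coding genes. A sterol regulatory element written as TCACNCCAC, either strand, was found in 1 of the 29 windows, that of Hmgcs1 at position -137, against 1.41% of protein-coding genes. The GC box GGGCGG was found in 23 of 29 (49.2% of genes). It was in 14 of 15 sterol pathway genes and 5 of 10 of the fatty acid, sphingolipid and galactolipid genes. The split by role was thus not particular to the CCAAT box. The E-box CACGTG was found in 7 of 29 (8.91%). None of the 4 patterns contains another. Windows of genes with several start sites count as matched when any of them matched. The 250 upstream bases of 4 genes are printed 5′ to 3′ with matches to the sterol element and the CCAAT box in capitals. Hmgcs1 and Mvd are sterol pathway genes with called differences in every comparison but that of the regions at E13.5, while Ugt8a and Elovl7 are the galactolipid and the fatty acid gene that differed most between the regions at P7 and held no match.
Hmgcs1, chr13:119690101-119690350, plus strand: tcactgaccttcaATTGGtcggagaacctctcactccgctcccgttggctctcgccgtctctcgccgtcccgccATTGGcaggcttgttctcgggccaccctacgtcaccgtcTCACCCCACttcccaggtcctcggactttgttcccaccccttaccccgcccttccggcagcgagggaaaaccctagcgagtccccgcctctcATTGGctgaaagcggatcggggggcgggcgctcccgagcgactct
Mvd, chr8:122443423-122443672, minus strand: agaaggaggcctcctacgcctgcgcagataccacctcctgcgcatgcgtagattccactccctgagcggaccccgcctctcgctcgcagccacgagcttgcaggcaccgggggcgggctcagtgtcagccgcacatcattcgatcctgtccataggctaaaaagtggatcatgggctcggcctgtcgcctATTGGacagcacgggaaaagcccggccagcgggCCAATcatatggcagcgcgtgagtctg
Ugt8a, chr3:125938653-125938902, minus strand: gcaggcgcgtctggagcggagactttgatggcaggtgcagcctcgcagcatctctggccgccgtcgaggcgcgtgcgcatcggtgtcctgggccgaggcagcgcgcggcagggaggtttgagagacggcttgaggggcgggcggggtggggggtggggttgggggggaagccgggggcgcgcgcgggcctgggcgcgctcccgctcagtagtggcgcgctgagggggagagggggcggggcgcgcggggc
Elovl7, chr13:108214154-108214403, plus strand: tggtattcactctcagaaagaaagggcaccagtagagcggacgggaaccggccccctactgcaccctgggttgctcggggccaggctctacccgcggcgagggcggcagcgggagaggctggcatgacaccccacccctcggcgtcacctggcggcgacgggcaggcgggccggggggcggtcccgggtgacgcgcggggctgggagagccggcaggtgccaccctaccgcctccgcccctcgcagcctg

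In capitals, Hmgcs1 shows 3 CCAAT boxes (written ATTGG on the opposite strand) and the sterol element, and Mvd shows 2 CCAAT boxes. These matches are descriptions of letters only, and their absence from the Ugt8a and Elovl7 windows covers no other sequence of those genes.

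Levels were compared between genes as CPM per kilobase of exon. Scd2, a fatty acid desaturase, ranked 1 of 36 in each of the 4 groups, with 123 CPM per kilobase in brain at E13.5 and 259 at P7, and 80.5 and 472 in spinal cord. Hmgcs1, the synthase that makes hydroxymethylglutaryl-CoA, ranked 3 in P7 spinal cord and 2 in the other groups. Ugt8a, the galactosyltransferase that makes galactosylceramide, ranked 31 in brain at E13.5 and 3 at P7, and 32 and then 2 in spinal cord. Gal3st1, which adds sulfate to galactosylceramide, ranked 34 in both regions at E13.5 and 10 in brain and 9 in spinal cord at P7. Elovl7, an elongase of fatty acids, ranked 35 in both regions at E13.5 and then 20 in brain and 11 in spinal cord. Fa2h ranked 36 in both regions at E13.5, and 28 in brain and 20 in spinal cord at P7. Srebf1 went the other way, from rank 16 in brain and 13 in spinal cord to 29 and 32, although its own level changed by under 2-fold.

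**Figure D1:**
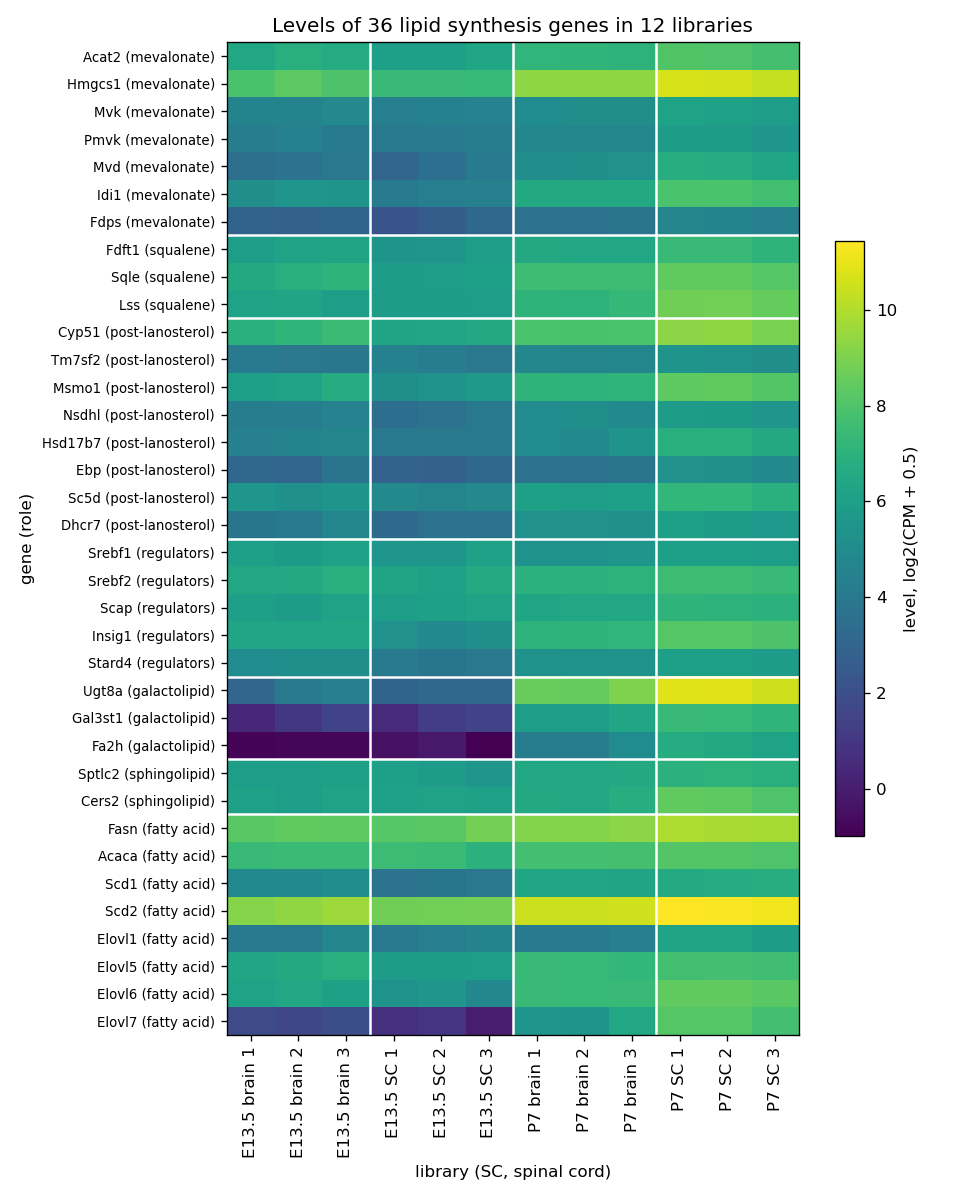
Heat map of log2(CPM + 0.5) for 36 genes (rows, by role) in 12 libraries (columns, grouped by age and region). The 18 sterol pathway rows are brightest in the 3 P7 spinal cord columns, and Gal3st1, Fa2h and Elovl7 are dark in all 6 E13.5 columns.

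Change with age was asked by setting P7 against E13.5. The paper reports several cell states among Pdgfra/GFP+ cells at each age. The differences are therefore between mixed pools and cannot be read as changes within a cell type. In spinal cord 33 of the 36 genes rose and 0 fell, and in brain 11 rose and 0 fell. The share of all tested genes that rose was 16.9% in spinal cord and 11.0% in brain, and 18.2% and 16.7% fell. The median difference of the members was 2.27 in spinal cord and 0.74 in brain. By adjusted p alone 35 members were higher in spinal cord (39.1% of all genes). In spinal cord 35 members had every P7 library above every E13.5 library (39.9% of all genes), and in brain 33 did (27.8% of all genes). For the 0 that fell, edgeR and limma-voom also gave 0 in both regions, and 1 gene in brain (Srebf1) and 0 in spinal cord were lower at an unadjusted p under 0.05. By adjusted p alone, 30 members were higher and 1 lower in brain (23.7% and 37.6% of all genes). All 18 sterol pathway genes rose in spinal cord, with a median of 2.33, and 4 of the 18 rose in brain, where the median was 0.73. The 3 galactolipid genes rose in both regions, with medians of 7.01 and 5.09. Fatty acid genes had medians of 2.19 and 0.96, and the 2 sphingolipid genes 1.65 and 0.48.

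**Figure D2:**
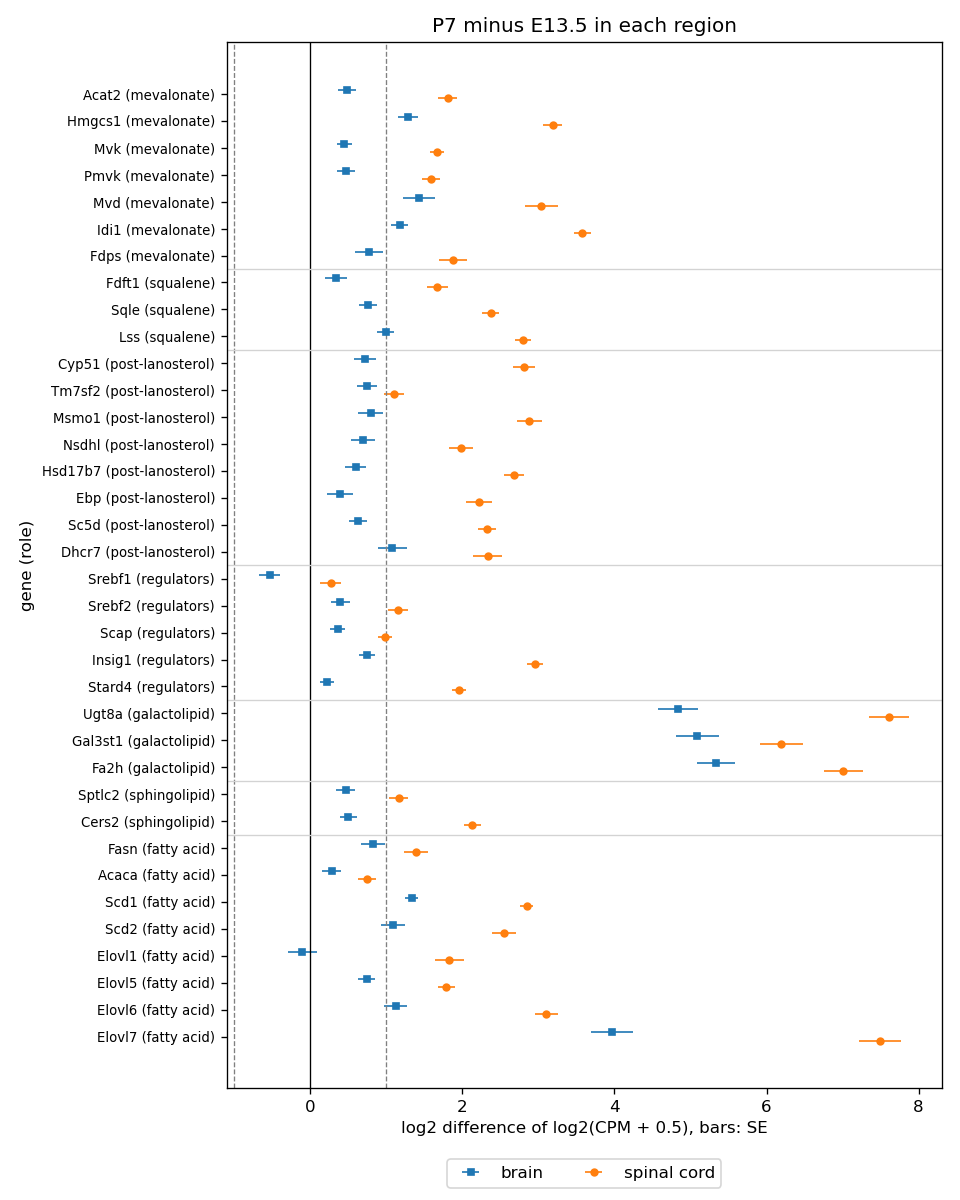
Difference P7 minus E13.5 in log2(CPM + 0.5) (x axis, bars are SE) for each of 36 genes (y axis, by role) in brain (squares) and spinal cord (circles), with dashed lines at 2-fold. Every circle lies to the right of the square of its gene, and Elovl1 and Srebf1 are the genes with a square left of 0.

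Of the 7 enzymes from acetyl-CoA to farnesyl diphosphate, all rose in spinal cord (1.59 to 3.58) and 3 rose in brain. Idi1, the isomerase that makes dimethylallyl diphosphate, stood at 35.2, 43.96 and 42.5 CPM in brain at E13.5 and 93.6, 90.3 and 92.2 at P7, and 16.6, 19.2 and 20.6 CPM in spinal cord at E13.5 and 243, 245 and 202 at P7. Idi1 was lowest in the E13.5 spinal cord and highest in the P7 spinal cord, and no group overlapped another. It rose by 3.58 ± 0.11 in spinal cord (adjusted p = 1.5e-10), the largest change among the sterol enzymes, and by 1.18 ± 0.11 in brain (adjusted p = 1.7e-06). Mvd, the mevalonate diphosphate decarboxylase, measured 11.5, 12.9 and 15.2 CPM in brain at E13.5 and 34.3, 35.7 and 38.9 at P7, and 7.80, 11.2 and 16.7 CPM in spinal cord at E13.5 and 109, 102 and 82.6 at P7. Its E13.5 groups overlapped, and both P7 groups lay above them. The rise of Mvd was 1.43 ± 0.21 in brain and 3.04 ± 0.21 in spinal cord. Hmgcs1 averaged 265 ± 41.3 CPM in brain at E13.5 and 643 ± 3.30 at P7, and 167 ± 6.22 CPM in spinal cord at E13.5 and 1527 ± 183 at P7 (SD). In spinal cord Hmgcs1 rose by 3.19 ± 0.13, and in brain by 1.29 ± 0.13.

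The other 4 enzymes of this stretch rose in spinal cord and stayed under 2-fold in brain. Acat2, the thiolase that joins acetyl-CoA units, read 85.4, 111 and 99.5 CPM in brain at E13.5 and 143, 138 and 131 at P7, and 65.4, 65.2 and 81.5 CPM in spinal cord at E13.5 and 263, 261 and 219.8 at P7. Mvk, mevalonate kinase, gave 23.8, 23.5 and 28.1 CPM in brain at E13.5 and 33.1, 34.9 and 34.8 at P7, and 20.1, 21.2 and 22.1 CPM in spinal cord at E13.5 and 74.3, 69.7 and 61.1 at P7. Pmvk, the kinase that follows it, gave 18.5, 21.8 and 16.7 CPM in brain at E13.5 and 27.7, 26.1 and 25.4 at P7, and 15.96, 17.8 and 17.9 CPM in spinal cord at E13.5 and 56.8, 55.9 and 45.9 at P7. In each of these 3 genes both P7 groups lay above both E13.5 groups, and P7 spinal cord above P7 brain. The differences in brain were 0.48 ± 0.12 for Acat2, 0.45 ± 0.10 for Mvk and 0.47 ± 0.12 for Pmvk, and in spinal cord 1.81, 1.67 and 1.59. Fdps, the farnesyl diphosphate synthase, averaged 7.13 ± 0.589 CPM in brain at E13.5 and 12.5 ± 0.708 at P7, and 6.12 ± 2.03 CPM in spinal cord at E13.5 and 23.2 ± 2.02 at P7 (SD), with differences of 0.77 ± 0.18 and 1.88 ± 0.18. Some counts in this stretch are uncertain, because 28.9% of the 100-base stretches of Acat2 are shared with Acat3, 15.8% of those of Idi1 with Gm13502 and 21.4% of those of Fdps with other genes. Fdps also shares 1124 exon bases with Gm43738 on the same strand, a gene at a mean of 0.0065 CPM.

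The 3 enzymes that make and close squalene all rose in spinal cord, and none was called in brain. Lss, lanosterol synthase, read 72.6, 76.6 and 62.9 CPM in brain at E13.5 and 135, 131 and 157 at P7, and 57.8, 57.03 and 61.2 CPM in spinal cord at E13.5 and 433, 441 and 363 at P7. Its P7 spinal cord libraries stood far above the other 9. Lss differed by 2.80 ± 0.11 in spinal cord and by 0.99 ± 0.11 in brain, just under 2-fold (adjusted p = 5.9e-06), and was called there with TMM scaling at 1.18. Sqle, squalene epoxidase, read 95.1, 110.1 and 135 CPM in brain at E13.5 and 192, 192 and 186 at P7, and 56.9, 61.7 and 65.1 CPM in spinal cord at E13.5 and 333, 335 and 289.7 at P7, with differences of 2.37 ± 0.12 in spinal cord and 0.76 ± 0.12 in brain. Fdft1, squalene synthase, read 61.2, 72.6 and 75.9 CPM in brain at E13.5 and 89.4, 86.3 and 88.7 at P7, and 43.4, 44.6 and 62.3 CPM in spinal cord at E13.5 and 172, 169 and 137 at P7. Fdft1 had P7 brain above E13.5 brain in every library, but its difference of 0.34 ± 0.14 did not pass the test (adjusted p = 0.052, 95% interval 0.03 to 0.64), while it rose by 1.67 ± 0.14 in spinal cord. Fdft1 shares 774 exon bases with Ctsb on the opposite strand, a gene at a mean of 153 CPM, and the sources used here do not state if the strand was used in counting.

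All 8 enzymes from lanosterol to cholesterol rose in spinal cord (1.10 to 2.88), and 1, Dhcr7, rose in brain. Dhcr7, a reductase that closes a branch of the pathway, read 13.9, 15.6 and 25.6 CPM in brain at E13.5 and 38.2, 38.8 and 37.2 at P7, and 9.35, 11.8 and 11.98 CPM in spinal cord at E13.5 and 66.2, 58.7 and 48.3 at P7. E13.5 brain replicate 3 stood above the other E13.5 libraries for Dhcr7, yet no P7 library overlapped E13.5. Its rise was 1.08 ± 0.19 in brain (adjusted p = 3.7e-04), and 0.91 without E13.5 brain replicate 1 or 0.99 without replicate 2, under 2-fold, and 2.33 ± 0.19 in spinal cord. Msmo1, a sterol methyl oxidase, read 64.7, 73.6 and 102 CPM in brain at E13.5 and 137, 131 and 141 at P7, and 35.6, 41.2 and 51.3 CPM in spinal cord at E13.5 and 329.9, 343 and 273 at P7, and it rose by 2.88 ± 0.17 in spinal cord. In brain Msmo1 differed by 0.80 ± 0.17, and by 1.09, a call, with the replicate number as a block within each age. Hsd17b7, a sterol ketoreductase, read 20.7, 23.1 and 24.8 CPM in brain at E13.5 and 31.1, 30.9 and 43.3 at P7, and 15.8, 15.8 and 15.7 CPM in spinal cord at E13.5 and 110.3, 112 and 89.5 at P7. P7 brain replicate 3 was the highest brain library for Hsd17b7, and the differences were 0.60 ± 0.13 in brain and 2.68 ± 0.13 in spinal cord.

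Ebp, a sterol isomerase, read 8.60, 7.95 and 13.1 CPM in brain at E13.5 and 12.5, 12.6 and 13.4 at P7, and 6.97, 6.62 and 8.44 CPM in spinal cord at E13.5 and 39.3, 37.8 and 30.96 at P7. E13.5 brain replicate 3 overlapped the P7 brain libraries of Ebp, and the brain difference of 0.39 ± 0.17 did not pass the test (adjusted p = 0.067, 95% interval 0.01 to 0.76), against 2.22 ± 0.17 in spinal cord. Tm7sf2, a sterol reductase, read 16.7, 14.8 and 14.2 CPM in brain at E13.5 and 26.3, 25.1 and 25.98 at P7, and 21.3, 18.2 and 14.7 CPM in spinal cord at E13.5 and 42.2, 40.6 and 34.3 at P7, and had the smallest rise of the sterol enzymes in spinal cord, 1.10 ± 0.13, with 0.74 ± 0.13 in brain. That call of Tm7sf2 was lost without E13.5 spinal cord replicate 3 (0.97), with median-ratio scaling (0.997) and with the replicate block within age (0.99), and 7.92% of its stretches lie in Vps51 as well. Cyp51, which demethylates lanosterol, averaged 146 ± 28.5 CPM in brain at E13.5 and 238 ± 3.88 at P7, and 82.1 ± 7.72 CPM in spinal cord at E13.5 and 580.1 ± 84.5 at P7 (SD). Sc5d, a sterol desaturase, averaged 41.8 ± 4.48 CPM in brain at E13.5 and 64.7 ± 2.003 at P7, and 27.6 ± 2.59 CPM in spinal cord at E13.5 and 140.1 ± 18.8 at P7 (SD). Nsdhl, a sterol dehydrogenase, averaged 19.7 ± 2.61 CPM in brain at E13.5 and 32.2 ± 3.95 at P7, and 12.8 ± 2.68 CPM in spinal cord at E13.5 and 51.9 ± 6.79 at P7 (SD). The 3 genes rose by 2.81, 2.32 and 1.98 in spinal cord, and differed by 0.72, 0.63 and 0.69 in brain.

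Among the 5 sterol regulators and transfer proteins, 3 rose in spinal cord and 0 were called in brain, where Srebf1 and Srebf2 stood on opposite sides of 0. Insig1, the sterol sensor that retains the Scap complex, read 82.5, 79.01 and 82.05 CPM in brain at E13.5 and 131, 135 and 143 at P7, and 38.7, 29.2 and 35.6 CPM in spinal cord at E13.5 and 282, 285 and 245 at P7. Its 4 groups did not overlap, and it rose by 2.96 ± 0.10 in spinal cord, against 0.74 ± 0.10 in brain. Stard4, a soluble sterol carrier, read 33.01, 36.7 and 35.4 CPM in brain at E13.5 and 41.1, 39.4 and 41.9 at P7, and 17.3, 14.00 and 15.5 CPM in spinal cord at E13.5 and 63.7, 64.1 and 58.4 at P7. For Stard4 the rise was 1.96 ± 0.09 in spinal cord, and the brain difference of 0.22 ± 0.09 did not pass the test (adjusted p = 0.055). Srebf2, the main activator of the sterol enzymes, read 88.4, 90.9 and 113 CPM in brain at E13.5 and 124, 125 and 132 at P7, and 75.4, 68.3 and 95.5 CPM in spinal cord at E13.5 and 182, 182 and 165 at P7, and rose by 1.15 ± 0.13 in spinal cord, against 0.39 ± 0.13 in brain. Scap read 63.6, 58.8 and 74.5 CPM in brain at E13.5 and 81.4, 83.9 and 86.5 at P7, and 60.5, 66.4 and 71.4 CPM in spinal cord at E13.5 and 136, 131 and 126 at P7. Scap differed by 0.98 ± 0.10 in spinal cord (adjusted p = 1.5e-06), just under 2-fold, and by 0.36 ± 0.10 in brain. Scap was called in spinal cord with the replicate block within age (1.07), with limma-voom (1.004) and without replicate 3 of E13.5 (1.04) or P7 (1.01) spinal cord. Srebf1, the relative of Srebf2 tied more to fatty acid genes, read 63.4, 55.2 and 68.5 CPM in brain at E13.5 and 41.4, 41.9 and 45.1 at P7, and 45.7, 47.1 and 68.8 CPM in spinal cord at E13.5 and 64.97, 64.7 and 61.9 at P7. In brain all 3 P7 libraries of Srebf1 lay below all 3 E13.5 libraries, a pattern seen in 44.9% of all genes, with a difference of -0.53 ± 0.14 (adjusted p = 0.0049) that is under 2-fold. In spinal cord Srebf1 overlapped between the ages (0.27 ± 0.14, adjusted p = 0.099, 95% interval -0.03 to 0.57).

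The 3 galactolipid enzymes rose in both regions, by more than any sterol enzyme. Ugt8a read 8.17, 16.1 and 20.8 CPM in brain at E13.5 and 369, 360.2 and 530.0 at P7, and 7.68, 8.53 and 8.44 CPM in spinal cord at E13.5 and 1849.7, 1880.1 and 1434 at P7. The highest E13.5 library of Ugt8a, brain replicate 3, lay below the lowest P7 library, brain replicate 2. Its rise was 4.83 ± 0.26 in brain and 7.62 ± 0.26 in spinal cord (adjusted p = 1.4e-08 and 3.1e-10). Gal3st1 read 0.808, 1.54 and 2.36 CPM in brain at E13.5 and 61.7, 61.04 and 78.4 at P7, and 0.893, 1.91 and 2.36 CPM in spinal cord at E13.5 and 166, 161 and 140.3 at P7, and rose by 5.09 ± 0.28 and 6.19 ± 0.28. Fa2h, which hydroxylates the fatty acid of the ceramide, read 0.0475, 0.0878 and 0.0536 CPM in brain at E13.5 and 17.96, 19.01 and 32.00 at P7, and 0.238, 0.4 and 0 CPM in spinal cord at E13.5 and 104, 92.97 and 72.7 at P7. Fa2h rested on 4 reads over the 3 E13.5 brain libraries and 13 over the E13.5 spinal cord libraries, of which replicate 3 had 0, a count that allows up to 0.506 CPM. The ratio of its pooled CPM at P7 to those at E13.5 was 368 in brain (95% interval 143 to 1350.0) and 315 in spinal cord (184 to 591), intervals that cover counting error only, since PCR copies are not separate molecules. Its fitted differences of 5.33 ± 0.25 and 7.01 ± 0.25 depend on the pseudocount.

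Of the 2 backbone enzymes, both rose in spinal cord and neither was called in brain. Cers2, the ceramide synthase for very long chains, read 68.2, 63.1 and 71.1 CPM in brain at E13.5 and 91.9, 88.6 and 107 at P7, and 69.2, 71.4 and 68.8 CPM in spinal cord at E13.5 and 338, 331 and 259 at P7. The E13.5 groups of Cers2 lay together, P7 brain a little higher, and P7 spinal cord apart from all others (2.13 ± 0.11, against 0.50 ± 0.11 in brain). Sptlc2, a subunit of the enzyme that starts sphingolipid synthesis, read 63.3, 61.1 and 67.6 CPM in brain at E13.5 and 86.5, 88.1 and 91.6 at P7, and 65.1, 56.4 and 43.9 CPM in spinal cord at E13.5 and 129, 129 and 110.1 at P7, with 1.16 ± 0.12 and 0.47 ± 0.12.

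Of the 8 fatty acid enzymes, 7 rose in spinal cord and 4 in brain (Scd1, Scd2, Elovl6 and Elovl7). Elovl7 read 3.04, 2.59 and 3.49 CPM in brain at E13.5 and 44.2, 42.5 and 85.9 at P7, and 1.07, 1.38 and 0.506 CPM in spinal cord at E13.5 and 284, 287 and 210.0 at P7. P7 brain replicate 3 of Elovl7 stood clear of replicates 1 and 2, and P7 spinal cord was higher again. The rise of Elovl7 was 3.96 ± 0.28 in brain, against 7.49 ± 0.28 in spinal cord. Elovl1, an elongase of very long chains, read 17.5, 15.7 and 24.7 CPM in brain at E13.5 and 16.2, 16.2 and 20.7 at P7, and 15.7, 19.2 and 22.9 CPM in spinal cord at E13.5 and 77.2, 75.5 and 56.3 at P7. In brain Elovl1 overlapped between the ages (-0.10 ± 0.19, 95% interval -0.52 to 0.31), and in spinal cord it rose by 1.83 ± 0.19. Acaca, the carboxylase that commits acetyl-CoA to fatty acids, read 173, 179 and 175 CPM in brain at E13.5 and 213, 212 and 218 at P7, and 183, 178 and 126 CPM in spinal cord at E13.5 and 276, 274 and 258 at P7. Acaca was the fatty acid gene that was not called in spinal cord (0.75 ± 0.12), and it differed by 0.28 ± 0.12 in brain (adjusted p = 0.064). Of the 100-base stretches of Acaca, 23.7% are shared with other genes.

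The desaturases and the remaining elongases rose together with Fasn in spinal cord. Scd2 averaged 670.1 ± 103 CPM in brain at E13.5 and 1416 ± 51.8 at P7, and 439.8 ± 14.9 CPM in spinal cord at E13.5 and 2579 ± 263 at P7 (SD), and rose by 1.09 ± 0.16 and 2.55 ± 0.16, although the brain call was lost without E13.5 brain replicate 1 (0.98). Scd1, its relative, averaged 31.2 ± 1.99 CPM in brain at E13.5 and 79.5 ± 3.29 at P7, and 13.8 ± 1.02 CPM in spinal cord at E13.5 and 103 ± 5.38 at P7 (SD), and rose by 1.34 ± 0.08 and 2.85 ± 0.08. Elovl6, which elongates palmitate, averaged 76.3 ± 10.1 CPM in brain at E13.5 and 166 ± 5.13 at P7, and 37.9 ± 9.01 CPM in spinal cord at E13.5 and 324 ± 20.7 at P7 (SD), with 1.12 ± 0.15 and 3.11 ± 0.15. These 3 genes were called in both regions. Fasn, the fatty acid synthase, averaged 327 ± 19.01 CPM in brain at E13.5 and 580.1 ± 37.6 at P7, and 353 ± 90.9 CPM in spinal cord at E13.5 and 911 ± 42.9 at P7 (SD), with 0.83 ± 0.16 in brain, under 2-fold but called with TMM scaling (1.02) and with the replicate block within age (1.002), and 1.40 ± 0.16 in spinal cord. Elovl5, an elongase of polyunsaturated chains, averaged 95.8 ± 16.6 CPM in brain at E13.5 and 159 ± 8.69 at P7, and 58.8 ± 2.66 CPM in spinal cord at E13.5 and 205 ± 5.62 at P7 (SD), with 0.74 ± 0.11 in brain, likewise under 2-fold, and 1.79 ± 0.11 in spinal cord.

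The comparison of the regions at E13.5 asked whether the sorted pools already differ between brain and spinal cord. Of the 36 genes, 6 were higher in brain and 0 lower, against 3.53% and 5.17% of all genes (8.71% in either direction). No member was lower at an unadjusted p under 0.05, and edgeR and limma-voom also gave 0, with 5 and 4 higher. By adjusted p alone 19 were higher in brain (17.9% of all genes), and 19 had every brain library above every spinal cord library (20.5% of all genes). The called genes were Insig1 (1.23 ± 0.10), Stard4 (1.14 ± 0.09), Idi1 (1.09 ± 0.11), Scd1 (1.15 ± 0.08), Elovl7 (1.29 ± 0.28) and Elovl6 (1.02 ± 0.15). They thus came from the sterol regulators, the sterol pathway and the fatty acid group. The call of Elovl6 was lost without E13.5 brain replicate 2 (0.92) or E13.5 spinal cord replicate 3 (0.81). It was also lost with limma-voom (0.94), edgeR (0.99), median-ratio scaling (0.94) and quantile normalization (0.97). That of Elovl7 was lost with limma-voom (1.47, adjusted p = 0.12). The median of the 18 sterol enzymes was 0.51, with 17 above 0 and Tm7sf2 below it (-0.22 ± 0.13). Galactolipid genes had a median of -0.11, from -0.30 for Fa2h to 0.74 for Ugt8a, and Cers2, Elovl1, Scap and Fasn lay between -0.08 and -0.01. OPC markers were higher in E13.5 brain for 4 of 6 genes (median 1.08), and vascular, leptomeningeal and pericyte markers lower for 3 of 6 (sums of 2581 to 3704 CPM in brain and 5333 to 5791 in spinal cord), and their part in these differences was not tested.

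At P7 the regions differed in the opposite direction. Of the 36 genes, 15 were lower in brain and 0 higher, against 4.35% and 2.27% of all genes. No member was higher at an unadjusted p under 0.05, and edgeR and limma-voom also gave 0 higher, with 16 and 15 lower. In all 36 genes each P7 brain library lay below each P7 spinal cord library, which held for 49.4% of all genes. By adjusted p alone 35 were lower and 0 higher (24.2% and 5.74% of all genes), the exception being Acaca (-0.33 ± 0.12, 95% interval -0.60 to -0.06). With TMM scaling 14 were called, 36 were still below 0, and 27 were lower by adjusted p alone (9.5% of all genes). The members' median was -0.97 as deposited, against -0.19 over all genes, and -0.78 with TMM scaling, against -0.02. Fewer cells of a type and less RNA per cell cannot be told apart in such bulk libraries.

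**Figure D3:**
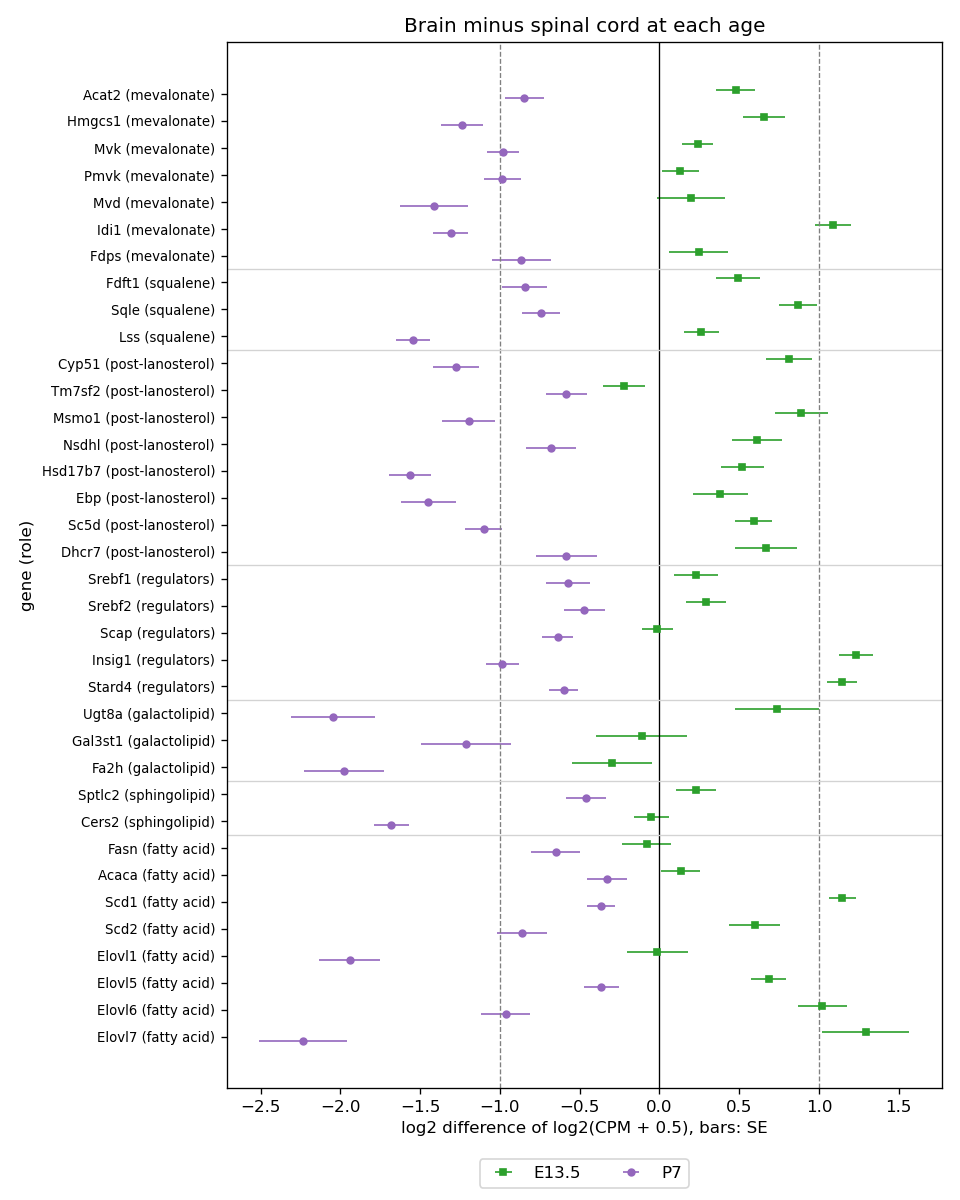
Difference brain minus spinal cord in log2(CPM + 0.5) (x axis, bars are SE) for each of 36 genes (y axis, by role) at E13.5 (squares) and P7 (circles), with dashed lines at 2-fold. All 36 circles lie left of 0, and 29 of 36 squares lie right of it.

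Among the 18 sterol enzymes, 9 were called lower in P7 brain, with a median of -1.04. They were Hsd17b7 (-1.56 ± 0.13), Lss (-1.54 ± 0.11), Ebp (-1.45 ± 0.17), Mvd (-1.41 ± 0.21), Idi1 (-1.31 ± 0.11), Cyp51 (-1.28 ± 0.14), Hmgcs1 (-1.24 ± 0.13), Msmo1 (-1.20 ± 0.17) and Sc5d (-1.10 ± 0.12). The smallest differences of the sterol enzymes were those of Dhcr7 (-0.58 ± 0.19) and Tm7sf2 (-0.58 ± 0.13). Sc5d was under 2-fold with TMM scaling (-0.91), and Msmo1 with median-ratio scaling (-0.97). All 3 galactolipid genes were called, Ugt8a (-2.05 ± 0.26), Fa2h (-1.98 ± 0.25) and Gal3st1 (-1.21 ± 0.28, adjusted p = 0.0069, and 0.093 with replicates 1 and 2 of each P7 group averaged). Cers2 differed by -1.68 ± 0.11 (adjusted p = 6.1e-07), against -0.46 ± 0.12 for Sptlc2. Of the fatty acid genes, Elovl7 (-2.23 ± 0.28) and Elovl1 (-1.94 ± 0.19) were called, while Scd1 (-0.37 ± 0.08) and Elovl5 (-0.36 ± 0.11) were among the smallest. None of the 5 regulators was called, from -0.98 for Insig1 to -0.47 for Srebf2. The elongases thus split, Elovl1 and Elovl7 being lower in P7 brain by over 2-fold and Elovl5 and Elovl6 (-0.96) by less.

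The region difference at P7 less that at E13.5 was tested as an interaction, in which a negative value covers genes whose regions drew apart, such as Lss (0.26 and then -1.54), and genes whose difference turned and became smaller, such as Scd1 (1.15 and then -0.37). It fell in 29 of 36 genes and rose in 0, against 9.66% and 6.66% of all genes, with no member higher at an unadjusted p under 0.05 and 0 by edgeR and limma-voom. By edgeR 28 fell, by limma-voom 27, and with TMM scaling 25. The sterol enzymes had a median of -1.61, with 17 of 18 called, Tm7sf2 being the exception (-0.36 ± 0.18, 95% interval -0.76 to 0.04). Medians were -1.68 for galactolipid, -1.48 for fatty acid, -1.16 for sphingolipid and -0.80 for regulator genes. The galactolipid median is the value of Fa2h, between those of Ugt8a and Gal3st1. Elovl7 had the largest value (-3.53 ± 0.39, adjusted p = 3.5e-05), followed by Ugt8a (-2.78 ± 0.37), Idi1 (-2.40 ± 0.16) and Insig1 (-2.22 ± 0.15). Those not called were Tm7sf2, Srebf1 (-0.80 ± 0.19), Srebf2 (-0.76 ± 0.18), Scap (-0.62 ± 0.14), Sptlc2 (-0.69 ± 0.18), Fasn (-0.57 ± 0.22) and Acaca (-0.46 ± 0.18). For Fa2h (-1.68 ± 0.36), with 4 and 13 reads at E13.5, the value and its call depended on the pseudocount and the method. A pseudocount of 0.1 gave -1.33 in limma (adjusted p = 0.13), limma-voom -0.45 (adjusted p = 0.80) and edgeR 0.11 (adjusted p = 0.91). Its pooled P7 to E13.5 ratios, 368 in brain and 315 in spinal cord, had overlapping intervals, and the direction of its interaction is uncertain. The calls of Pmvk, Fdps and Elovl5 were lost with TMM scaling (-0.93, -0.93 and -0.86), that of Fdps also without E13.5 spinal cord replicate 1 (-0.89), and those of Elovl5 and Dhcr7 without E13.5 brain replicate 3 (-0.92 and -0.99). For Gal3st1 (-1.10 ± 0.40, adjusted p = 0.045) the call was lost in most other settings, such as TMM scaling (-0.91, adjusted p = 0.10).

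Most markers of later oligodendrocytes moved with these genes. Of the 7 myelinating markers, 5 rose with age in brain and 7 in spinal cord. Of the 6 committed and newly formed markers, 5 rose with age in each region. In brain 1 of the 6 fell (-2.13), and in spinal cord 1 was lower by adjusted p alone (-0.79). The 7 markers of myelinating oligodendrocytes summed in brain to 15.4 to 38.7 CPM at E13.5 and 664 to 1402 at P7, and in spinal cord to 15.96 to 25.3 and 6050.2 to 8584. All 7 were lower in P7 brain than in P7 spinal cord, with a median of -4.97. In E13.5 libraries Mog, Mal, Mobp and Opalin were at 0 in some, and at P7 none of the 7 was at 0. The 6 markers of committed and newly formed oligodendrocytes summed at P7 to 3126 to 3888 CPM in brain and 5006 to 5256 in spinal cord, with 3 of 6 lower in brain, and to 131 to 295 at E13.5. Of the 6 OPC markers 0 were called between the regions at P7, with a median of 0.07, from -0.66 to 0.57. By adjusted p alone 1 of them was lower in brain. The OPC markers summed at P7 to 5837 to 6992 CPM in brain and 5613 to 5702 in spinal cord, every brain library being higher. The paper reports more Pdgfra RNA in P7 brain than in P7 spinal cord. The sterol enzymes summed at P7 to 1959.0 to 2011 CPM in brain and 3860.1 to 4777 in spinal cord, and the galactolipid genes to 440.2 to 640.3 and to 1647 to 2134. The part of the mix of stages in the member differences was not tested.

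**Figure D4:**
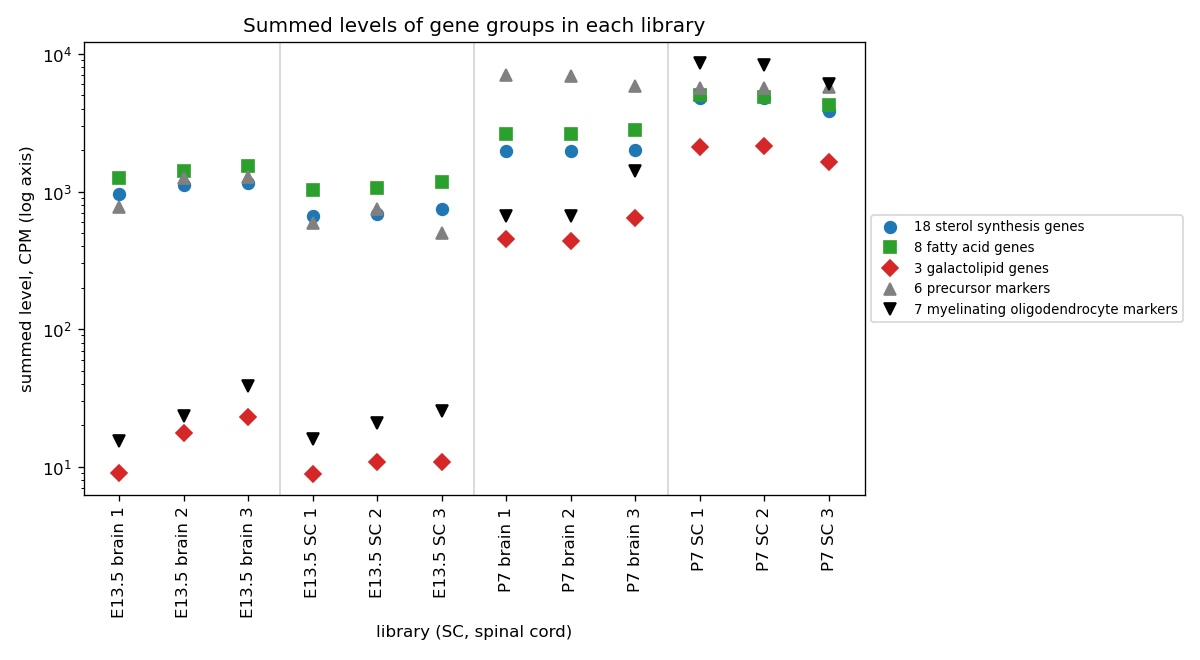
Summed CPM (log axis) of 5 gene groups in each of 12 libraries (x axis, by age and region). The 3 galactolipid genes and the 7 myelinating oligodendrocyte markers stand highest in the 3 P7 spinal cord libraries, and in P7 brain both are highest in replicate 3, at 640.3 and 1402 CPM.

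Within P7 the third replicate of each region differed from replicates 1 and 2, which lay close together. In brain, replicate 3 had more RNA of the galactolipid genes, by a median of 0.54 on the log2 scale, and of Elovl7 (0.98), Hsd17b7 (0.47) and Elovl1 (0.34). The 18 sterol enzymes had a median of 0.02 in the same comparison, from -0.21 for Nsdhl to 0.47 for Hsd17b7, and all genes a median of 0.01. In P7 brain the galactolipid genes and Elovl7 of replicate 3 thus stood apart from replicates 1 and 2, while most sterol enzymes lay close to them. Myelinating markers were higher in that library by a median of 1.38, committed and newly formed markers by 0.67 and microglial markers by 0.89. Vascular, leptomeningeal and pericyte markers were higher by 0.56, erythroid by 0.41 and endothelial by 0.20. OPC markers differed by -0.11, neuronal by -0.20 and astrocyte and radial glia markers by -0.03. In spinal cord, replicate 3 lay below the mean of the others for 35 of the 36 members, Scd1 being the exception (0.10). There the medians were -0.31 for the sterol enzymes, -0.38 for the galactolipid genes, -0.13 for the fatty acid genes and -0.02 over all genes. Myelinating markers differed by -0.41 in the same library, microglial by -1.24, endothelial by -1.13, erythroid by -0.28 and astrocyte and radial glia markers by -0.18. Vascular, leptomeningeal and pericyte markers differed by 0.94, from -1.08 to 1.35. Committed and newly formed markers differed by -0.06, neuronal by -0.07 and OPC markers by 0.06. Each of these values compares 1 library with 2 and has no test.

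**Figure D5:**
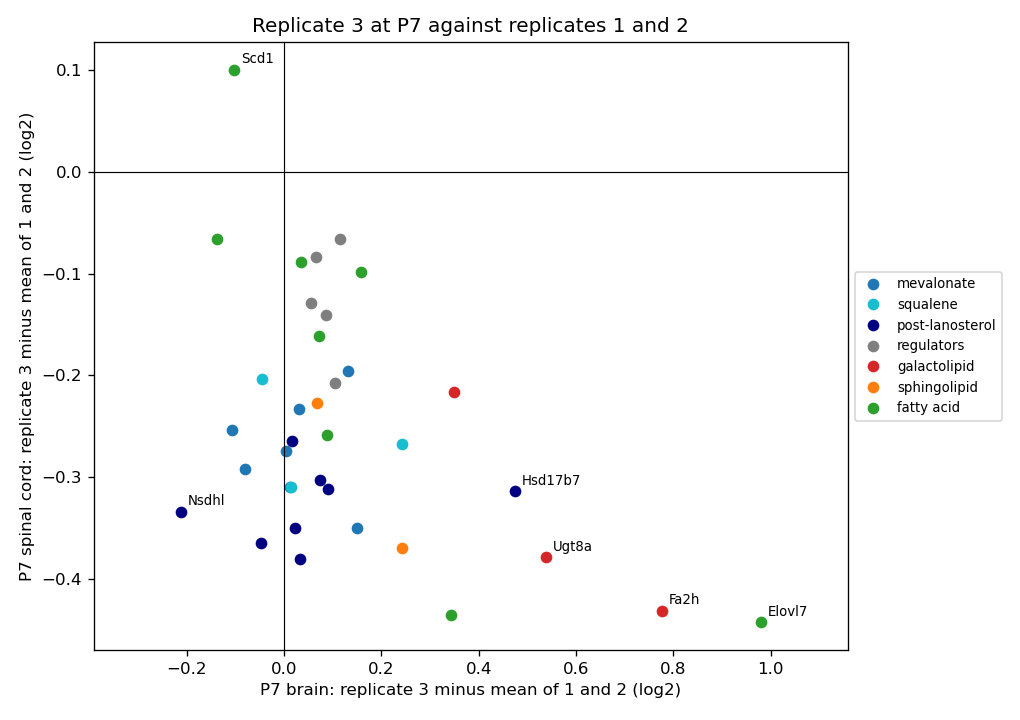
Replicate 3 minus the mean of replicates 1 and 2 in log2(CPM + 0.5), for P7 brain (x axis) and P7 spinal cord (y axis), 1 point per gene, coloured by role. Elovl7 (0.98 and -0.44) and Fa2h (0.78 and -0.43) stand farthest to the right, and most sterol enzymes lie near 0 on x and between -0.38 and -0.20 on y.

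The marker lists of other cell types were measured beside these genes. Vascular, leptomeningeal and pericyte markers summed at P7 to 693 to 917 CPM in brain and 645 to 1302 in spinal cord. With age 5 of the 6 fell and 1 rose (1.16) in brain, and 6 of 6 fell in spinal cord. Astrocyte and radial glia markers summed at P7 to 1547 to 1864 CPM in brain and 1024 to 1168 in spinal cord, with 2 of 6 higher in brain and 0 lower. Neuronal markers summed to 409 to 454 CPM and 469.9 to 500.3, with 1 of 6 higher and 1 lower. Microglial markers summed to 24.6 to 50.9 CPM and 14.7 to 20.3 (4 of 5 tested higher in brain), endothelial markers to 19.8 to 25.03 and 14.4 to 16.9 (0 called of 4), and erythroid markers to 21.6 to 39.98 and 5.43 to 8.97 (2 of 4 higher in brain). The embryonic globins Hbb-y and Hba-x were at 0 in all 6 P7 libraries. The part of these cell types in the member differences was not tested.

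Other genes of the same pathways, 55 in all of which 54 were tested, moved less uniformly. With age 13 rose and 2 fell in brain (24.1% and 3.7%, against 11.0% and 16.7% of all genes), and 29 rose and 4 fell in spinal cord (53.7% and 7.41%, against 16.9% and 18.2%). In brain the largest rises were those of Abcg1 (2.69), a sterol exporter, and Gltp (2.68), a glycolipid transfer protein, and the 2 that fell were Cers6 (-1.79), a ceramide synthase for shorter chains, and Elovl2 (-1.31), an elongase of polyunsaturated chains. In spinal cord Gltp (4.44) and Acsl3 (3.05), which activates fatty acids, rose most, and Abca1 (-2.72), a cholesterol exporter, and Cers6 (-2.33) fell most. Abca1 and Abcg1, both sterol exporters, thus moved in opposite directions there. Genes of sterol sensing, uptake, storage and efflux had a median of 0.07 in spinal cord, with 2 of 14 rising and 2 falling, against 2.33 for the sterol enzymes. Between the regions at E13.5 the shares called were near those of all genes, 3.7% higher in brain and 5.56% lower. The 2 higher were Acsbg1 (1.88) and Elovl2 (1.11), and of the 3 lower Agps (-2.01) and Mylip (-1.42) were the largest. At P7, 8 were lower in brain (14.8%, against 4.35% of all genes), with Acsl1 (-2.08) and Acss2 (-1.46), both acyl-CoA synthetases, the largest, and Abca1 (1.49) was the 1 higher (1.85%, against 2.27%). In the interaction 12 fell (22.2%, against 9.66%), led by Acsl3 (-2.01) and Gltp (-1.76), and 3 rose (5.56%, against 6.66%), led by Abca1 (2.61) and Mylip (1.72). Acetyl-CoA and NADPH supply genes rose in 5 of 6 cases in spinal cord and 2 of 6 in brain, and other sphingolipid and galactolipid genes in 8 of 13 and 4 of 13.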

How the data were processed

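The authors sequenced total RNA of 12 pools of sorted Pdgfra/GFP+ cells. Per the study's methods and the submitters' processing notes, reads were aligned with STAR 2.5.0a to mm10 and assigned to GENCODE M8 genes by featureCounts 1.5.0-p1, reads mapping to several places being shared out and rounded. The authors deposited CPM values, each count being divided by a rescaled library size. In 9 of the 12 columns the deposited values fit within plain CPM, and in 3 the deposited values sum to more than plain CPM allows and were treated as a normalized signal. All values (100%) were whole multiples of what 1 read is worth, within 0.0001, so the reads could be recovered. No column was left out (0 not used).

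Symbols and positions came from the annotation of the same build, and 46488 of 47069 identifiers had a symbol. Differences were fitted with limma 3.58.1 (R 4.3.3) with an intensity trend on log2(CPM + 0.5), for 18319 genes that reached 0.7 CPM in 3 or more libraries, with 1 mean per group and 5 contrasts. The study used limma with voom, which was run on the recovered reads as an alternative, as was edgeR 4.0.16. P-values were adjusted by the Benjamini-Hochberg method over all tested genes. The smallest value that 3 reads can show was 0.079 to 0.506 CPM. Tested on simulated counts for P7 minus E13.5 in brain, 186 of 200 genes changed 4-fold were recovered among 18319 genes, with 0 unchanged genes called. The simulated libraries were independent, all genes had the same spread, and far fewer genes changed than were called in the data. The simulation therefore does not give the error rate in the real libraries. Nothing says that replicates with different numbers came from unrelated animals, and p-values measure the spread between these pools.

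The 36 genes, the lists of other pathway genes and the marker lists were chosen with earlier results of these data known. Values in every library are given for the galactolipid genes and for the genes with the largest and smallest change of their role group in each comparison of 2 groups. Other members are given by group, and other pathway genes are named where called with the 2 largest changes in each direction. Hbb-y and Hba-x, and the markers at 0, were named after their values were seen. Some genes of these pathways are not analysed here.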

Additional observations from a re-analysis of the deposited data

Results flagged for a closer look

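In 29 of the 36 genes the difference between brain and spinal cord changed between E13.5 and P7 by a test of that change itself (limma interaction, adjusted p under 0.05 and over 2-fold), against 9.66% of all genes that fell and 6.66% that rose. Each value is brain minus spinal cord at P7 less the same at E13.5, on the log2(CPM + 0.5) scale, and all are negative. From acetyl-CoA to farnesyl diphosphate the genes were Acat2 (-1.33), Hmgcs1 (-1.90), Mvk (-1.22), Pmvk (-1.12), Mvd (-1.61), Idi1 (-2.40) and Fdps (-1.11). In squalene and lanosterol formation the genes were Fdft1 (-1.34), Sqle (-1.61) and Lss (-1.81). From lanosterol to cholesterol the genes were Cyp51 (-2.09), Msmo1 (-2.08), Nsdhl (-1.29), Hsd17b7 (-2.08), Ebp (-1.83), Sc5d (-1.69) and Dhcr7 (-1.25). Among the regulators the genes were Insig1 (-2.22) and Stard4 (-1.74). Among the galactolipid genes the genes were Ugt8a (-2.78), Gal3st1 (-1.10) and Fa2h (-1.68). In the sphingolipid backbone the gene was Cers2 (-1.63). Among the fatty acid genes the genes were Scd1 (-1.51), Scd2 (-1.46), Elovl1 (-1.93), Elovl5 (-1.05), Elovl6 (-1.98) and Elovl7 (-3.53). Of the 29 calls, 18 held in every other setting, and those of Acat2, Mvk, Pmvk, Fdps, Fdft1, Nsdhl, Dhcr7, Gal3st1, Fa2h, Scd2 and Elovl5 were lost in 1 or more. Groups of 3 libraries are too small for a search for outlying libraries, which was not run.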

How the results depend on the processing

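Each count was recomputed in 24 other settings. Without the 2-fold requirement (adjusted p alone), 31 members in place of 11 passed for P7 minus E13.5 in brain, 19 in place of 6 for brain minus spinal cord at E13.5, and 35 in place of 15 at P7. Leaving out 1 library at a time gave 10 to 12 called for P7 minus E13.5 in brain, 33 to 34 in spinal cord, 5 to 8 for the regions at E13.5, 15 to 19 at P7 and 26 to 29 for the interaction. Median-ratio scaling gave 14, 32, 5, 12 and 22, and quantile normalization 12, 30, 5, 10 and 21. The Fa2h interaction was 0.11 with edgeR (adjusted p = 0.91) and -1.33 with a pseudocount of 0.1 (limma, adjusted p = 0.13), against -1.68, and its direction is uncertain. Of the calls, 9 of 11, 30 of 33, 4 of 6, 10 of 15 and 18 of 29 held in every setting. Quantile normalization ended the calls of Tm7sf2 (0.89), Srebf2 (0.82) and Sptlc2 (0.84) with age in spinal cord. Between the regions at P7 it ended those of Hmgcs1 (-0.86), Cyp51 (-0.96), Msmo1 (-0.92), Sc5d (-0.82) and Gal3st1 (-0.93). There median-ratio scaling ended those of Msmo1 (-0.97), Sc5d (-0.87) and Gal3st1 (-0.99). Of 4140 values of single members in the other settings, 92 changed their call, 64 to weaker, 27 to stronger and 1 in direction.

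The replicate numbers of the titles were not treated as pairing, since the study names none. Same-numbered libraries of the regions deviated together by r = 0.08 to 0.41 at E13.5, against -0.44 to 0.20 for different numbers. At P7 the values were 0.01 to 0.04 and -0.06 to 0.06. The sources used here do not state if same-numbered E13.5 libraries share animals. With the replicate number as a block, 11, 33, 6, 15 and 29 members were called in the 5 comparisons, and no member's call changed. With a replicate block within each age the counts were 13, 33, 6, 15 and 29. Under that block Msmo1 (1.09) and Fasn (1.002) gained a call in brain, and in spinal cord Scap (1.07) gained one and Tm7sf2 (0.99) lost one. At E13.5 depth limits Fa2h, Gal3st1 and Elovl7, and the closeness of P7 replicates 1 and 2 makes the spread at P7 rest largely on replicate 3.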
